A study of Arabidopsis thaliana with 15 samples.

Results

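The LSH (LIGHT-DEPENDENT SHORT HYPOCOTYLS) genes encode the ALOG domain proteins of Arabidopsis thaliana. Their transcripts were followed here through hormone-induced shoot regeneration at 27 and 17 °C. The 10 members, LSH1 to LSH10, were found by their locus identifiers among the 33602 genes of the deposited count table. The family was chosen by the counts of LSH2 and LSH4, which were high on shoot-inducing medium at 27 °C, so the values of that pair in those libraries are given as a description, without a test. For the same reason no p-value is given for any member in 27 °C against 17 °C on shoot-inducing medium or in shoot-inducing against callus-inducing medium at 27 °C.

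The samples were hypocotyl explants of the ecotype Col-0, cut from 7-day-old seedlings that had been kept dark at 22 °C, with about 100 explants in a sample. Callus-inducing medium (CIM) held 0.1 mg/L of the cytokinin kinetin and 0.5 mg/L of the synthetic auxin 2,4-D. Shoot-inducing medium (SIM) held 0.5 mg/L of the cytokinin 2-iP and 0.15 mg/L of the auxin IAA. Each of 5 groups had 3 libraries of polyadenylated RNA: fresh explants at 0 h, explants after 4 days on CIM at 27 °C, the same at 17 °C, explants after 4 days on CIM and 4 more days on SIM at 27 °C, and the same at 17 °C. The labels give a single temperature for each sample. No group carried a mutation or a transgene, and both media were used in continuous light, so in CIM against 0 h the hormones, light, temperature and time cannot be told apart. In SIM against CIM the medium and the time in culture cannot be told apart. In these bulk samples, fewer cells that express a gene and less RNA of it per cell cannot be told apart either.

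ALOG proteins, named after Arabidopsis LSH1 and rice G1, are plant-specific nuclear proteins with a conserved DNA-binding domain. LSH1 is known for phytochrome-dependent shortening of the hypocotyl in light. LSH3 and LSH4 are expressed at the boundaries between the shoot meristem and its lateral organs, where the NAC factor CUC1 switches them on. LSH10 binds the histone deubiquitinase OTLD1, and LSH8 is known from the response of seeds and seedlings to abscisic acid. In tomato, the relative TMF times the transition to flowering and works with BOP proteins.

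The coding sequences of the members were aligned to see what they share. Of 441 aligned columns without a gap, 158 (35.8%) were identical in all 10 members. The window of 60 coding bases with the most identity held 32 identical bases, and it is shown to compare the members the results turn on with the rest. Sequences are from the RefSeq annotation of TAIR10.1, read 5′ to 3′ on the coding strand, with capitals marking the bases identical in all 10 members.
LSH1 (chr5:10454782-10454841, minus strand): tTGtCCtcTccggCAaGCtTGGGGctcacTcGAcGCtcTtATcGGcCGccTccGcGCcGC
LSH2 (chr3:1216062-1216121, minus strand): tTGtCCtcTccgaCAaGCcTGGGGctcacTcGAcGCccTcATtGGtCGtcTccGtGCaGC
LSH3 (chr2:13278262-13278321, plus strand): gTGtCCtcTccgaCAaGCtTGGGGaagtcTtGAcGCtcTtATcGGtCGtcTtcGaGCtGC
LSH4 (chr3:8327764-8327823, plus strand): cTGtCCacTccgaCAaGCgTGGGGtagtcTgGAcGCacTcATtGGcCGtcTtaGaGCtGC
LSH5 (chr5:23645770-23645829, minus strand): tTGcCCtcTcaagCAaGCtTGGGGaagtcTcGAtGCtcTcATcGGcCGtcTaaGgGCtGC
LSH6 (chr1:2174443-2174502, minus strand): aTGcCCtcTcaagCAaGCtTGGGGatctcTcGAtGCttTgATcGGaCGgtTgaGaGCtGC
LSH7 (chr1:29632265-29632324, minus strand): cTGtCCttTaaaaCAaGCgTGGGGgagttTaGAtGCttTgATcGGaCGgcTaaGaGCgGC
LSH8 (chr1:5785639-5785698, plus strand): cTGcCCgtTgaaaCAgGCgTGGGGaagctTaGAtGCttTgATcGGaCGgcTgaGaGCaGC
LSH9 (chr4:10251102-10251161, plus strand): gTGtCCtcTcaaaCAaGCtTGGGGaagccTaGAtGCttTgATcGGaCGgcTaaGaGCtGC
LSH10 (chr2:17748277-17748336, plus strand): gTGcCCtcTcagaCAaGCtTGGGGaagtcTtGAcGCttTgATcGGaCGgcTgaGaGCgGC

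The nearest pairs over the whole coding sequence were LSH7 with LSH8 at 80.2% identity and LSH1 with LSH2 at 79.2%. LSH3 was nearest to LSH4, at 67.7%, and LSH6 to LSH10, at 68.1%. Over the genomic spans of the members in the table, a stretch of 25 or more identical bases occurred in 4 of 45 pairs. These were LSH1 with LSH2, LSH7 with LSH8, LSH7 with LSH9 and LSH3 with LSH10. Reads from those stretches could have been split between copies, and the values of those members are uncertain to that extent. None of the members overlapped another gene of the table.

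Library totals ranged from 3427707 to 4446863 counts. Levels are CPM (the share of a library's counts on a common scale), with library sizes adjusted by TMM (trimmed mean of M-values), and means carry ± SD over 3 libraries. Between libraries 1 and 3 of CIM at 27 °C, 0 genes differed in a binomial test of counts, against 1 to 182 genes in the other pairs of a group. They differed by less than the sampling noise, with a chi-square of 0.717 per degree of freedom. They were counted as 1 sample in means (n = 2), but separately in the tests. Libraries 1 and 2 of SIM at 27 °C were closer still by chi-square, at 0.701, but were kept separate in means. The labels do not say that libraries came from separate cultures, so the p-values cover the spread among these libraries alone, which may be technical. In 10 of 15 pairs of libraries within a group, counts agreed more closely than counting noise gives, with a chi-square of 0.701 to 0.912 per degree of freedom. Of the marker genes, the shoot meristem genes WUS, CLV3 and STM summed to 19.9 to 25.5 CPM on SIM at 27 °C and 5.14 to 6.62 CPM on SIM at 17 °C, against at most 0.293 CPM in the other libraries. Seed maturation genes had 3966 and 2824 counts in 0 h libraries 1 and 3 but 14 in library 2, and at most 0.872 CPM in any cultured library. The 12 genes of green tissue were also uneven on CIM at 17 °C, where library 3 had 1145 counts against 514 and 643 in the others. The part of these marker differences in the results below was not tested, except where values without a library are given.

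**Figure D1:**
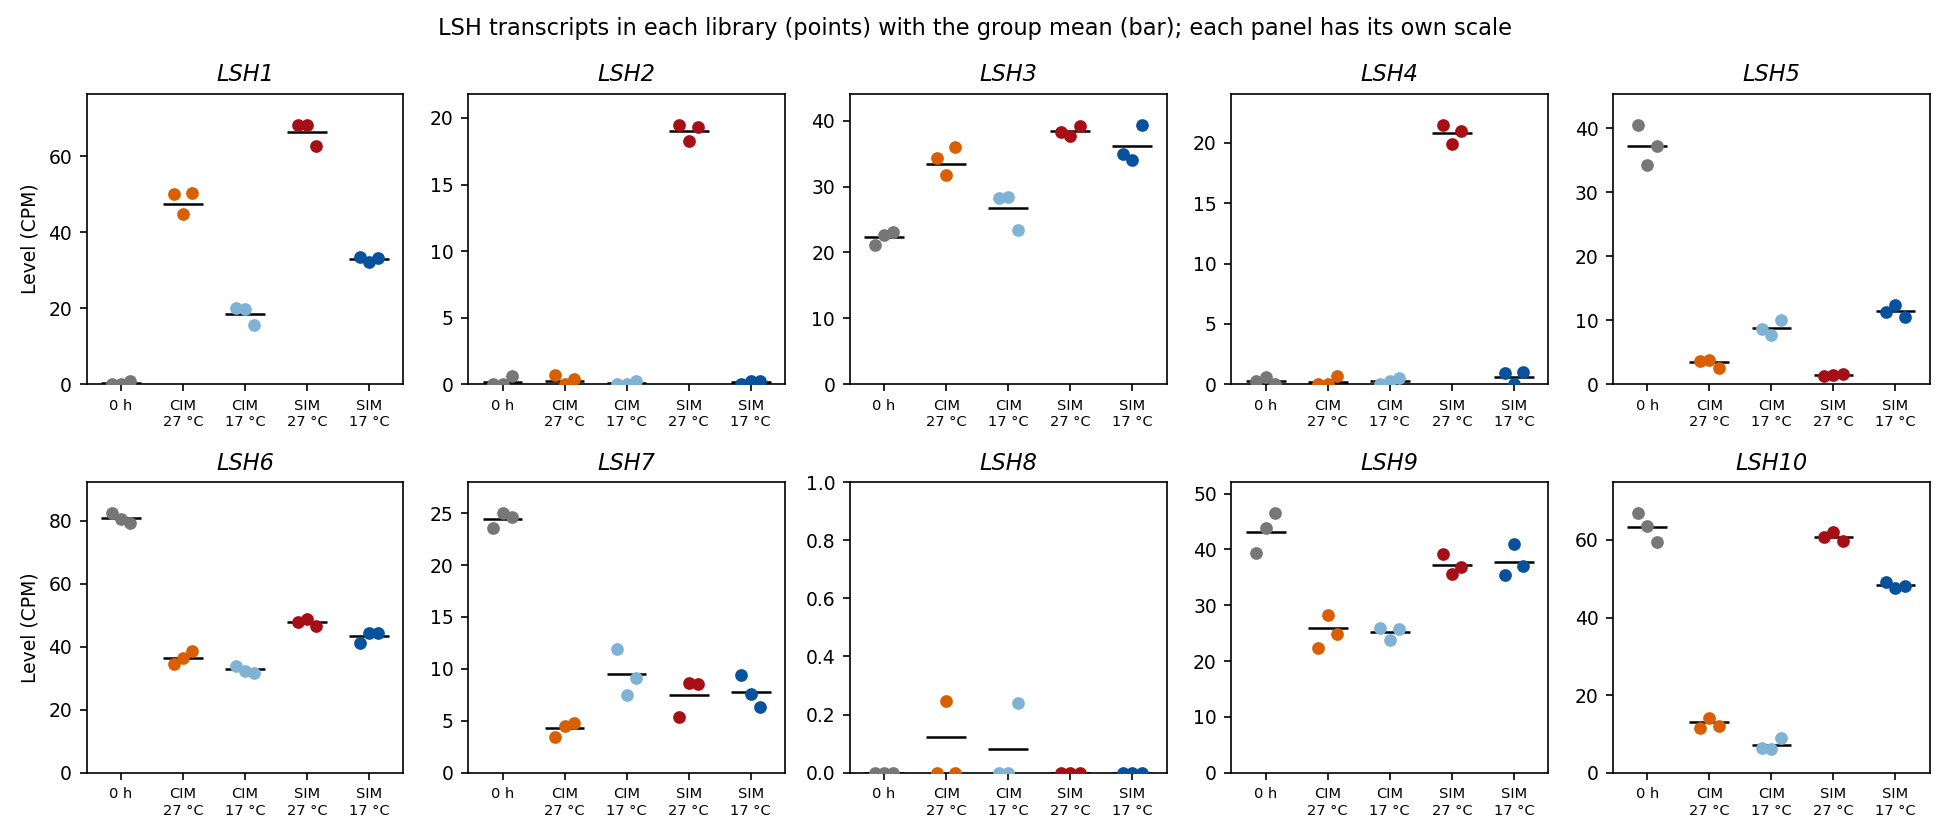
Level in CPM of each LSH member in every library, in 5 groups from 0 h to SIM. Points are libraries and bars are group means, with libraries 1 and 3 of CIM at 27 °C averaged first; each panel has its own linear scale. LSH2 and LSH4 stand near 20 CPM on SIM at 27 °C and below 1 CPM in all other groups, while LSH8 is near 0 throughout.

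LSH2 and LSH4, the pair that led to the choice of the family, were close to 0 until the explants reached SIM at 27 °C. LSH2 (AT3G04510, chr3:1215636-1216958, minus strand) had 87, 78 and 84 counts on SIM at 27 °C, against 0, 1 and 1 counts on SIM at 17 °C. On CIM it had 3, 0 and 2 counts at 27 °C and 0, 0 and 1 counts at 17 °C, and at 0 h it had 0, 0 and 2 counts. The groups on SIM did not overlap, and every library of the other groups stayed at 3 counts or fewer. In levels, LSH2 averaged 19 ± 0.661 CPM on SIM at 27 °C and 0.172 ± 0.149 CPM on SIM at 17 °C (SD, n = 3 each). With 249 counts against 2 over the groups, the ratio of levels was 114, with a 95% counting interval of 31.3 to 950. This and all later counting intervals cover counting error only, since no molecular identifiers are described and amplified reads are not independent molecules.

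LSH4 (AT3G23290, chr3:8326825-8328132, plus strand), a boundary gene, had 96, 85 and 91 counts on SIM at 27 °C, against 4, 0 and 4 counts on SIM at 17 °C. On CIM it had 0, 0 and 3 counts at 27 °C and 0, 1 and 2 counts at 17 °C, and at 0 h it had 1, 2 and 0 counts. All 3 libraries of SIM at 27 °C lay far above the rest, and the other 4 groups overlapped one another. LSH4 averaged 20.8 ± 0.804 CPM on SIM at 27 °C and 0.641 ± 0.556 CPM on SIM at 17 °C, a log2 fold change of 4.90 ± 0.35 (± SE). Here and below, the SE was derived as the log2 fold change over the square root of edgeR's F statistic. Such an SE can be smaller than counting error alone and then overstates precision. The ratio of the 272 counts of LSH4 to 8 was 31.2, with a counting interval of 15.6 to 73.1. Between SIM and CIM at 27 °C the ratio was 90 for LSH4, from 272 counts against 3, with an interval of 30.5 to 439, and 49.4 for LSH2, from 249 counts against 5, with an interval of 20.9 to 154. The 3 counts of LSH4 on CIM at 27 °C all came from library 3, so without it that group is at 0.

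Outside SIM at 27 °C this pair had too few counts for a test to be informative, so only counts are given. LSH2 had 5 counts on CIM at 27 °C against 1 on CIM at 17 °C, a ratio of 4.52 with an interval of 0.506 to 214. LSH4 had 8 counts on SIM at 17 °C against 3 on CIM at 17 °C, a ratio of 2.61 with an interval of 0.626 to 15.3. Both intervals include 1, and differences of this pair among these groups were not detectable at this depth.

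The remaining members were tested first between temperatures on CIM, a comparison outside the choice of the family. LSH1 and LSH10 were higher at 27 °C, LSH3 slightly so, and LSH5 and LSH7 lower. Of the 9 members that passed the filter on low counts, 3 rose and 2 fell in edgeR at an adjusted p of 0.05. Of all 20704 genes tested, 42.6% passed the same threshold, 21.6% higher and 21% lower. LSH2 and LSH4 passed the filter only through SIM at 27 °C and had few counts on CIM, so nothing is read from the members' share. LSH8 (AT1G16910, chr1:5785003-5785927, plus strand) did not pass the filter: it had 1 count in a single CIM library at each temperature and none elsewhere.

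LSH1 (AT5G28490, chr5:10454393-10455196, minus strand), the regulator of hypocotyl length, had 50, 44.7 and 50.3 CPM in the libraries of CIM at 27 °C, against 20.1, 19.9 and 15.7 CPM on CIM at 17 °C. Every library at 27 °C lay above every library at 17 °C. Its log2 fold change was 1.39 ± 0.10 (edgeR, adjusted p = 3.31e-13). LSH10 (AT2G42610, chr2:17747917-17750440, plus strand), the partner of OTLD1, had 11.5, 14.2 and 12.1 CPM at 27 °C, against 6.4, 6.01 and 8.93 CPM at 17 °C. The groups did not overlap, and the log2 fold change was 0.81 ± 0.15 (edgeR, adjusted p = 1.00e-04). LSH3 (AT2G31160, chr2:13277811-13278745, plus strand), the second boundary gene under CUC1, had 34.3, 31.8 and 36 CPM at 27 °C, against 28.2, 28.4 and 23.4 CPM at 17 °C. That rise was small, 0.36 ± 0.09 on the log2 scale (edgeR, adjusted p = 0.00245), and it rested on library 3 of CIM at 17 °C: without it the value was 0.25 (adjusted p = 0.0834, the highest of a range from 7.59e-04 over all alternatives).

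LSH5 and LSH7 went the other way, and no role is given for either here. LSH5 (AT5G58500, chr5:23645535-23646083, minus strand) had 3.69, 3.72 and 2.6 CPM on CIM at 27 °C, against 8.72, 7.69 and 10.1 CPM on CIM at 17 °C, and fell by 1.41 ± 0.22 on the log2 scale (edgeR, adjusted p = 2.78e-06). LSH7 (AT1G78815, chr1:29631743-29632745, minus strand) had 3.46, 4.47 and 4.77 CPM at 27 °C, against 11.9, 7.45 and 9.17 CPM at 17 °C, and fell by 1.14 ± 0.23 (edgeR, adjusted p = 1.44e-04). Every library at 27 °C was below every library at 17 °C for both genes. LSH6 (AT1G07090, chr1:2173952-2174894, minus strand) and LSH9 (AT4G18610, chr4:10250698-10251542, plus strand) did not pass the threshold: log2 fold changes were 0.16 ± 0.07 for LSH6 (adjusted p = 0.178) and 0.00 ± 0.10 for LSH9 (adjusted p = 1).

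**Figure D2:**
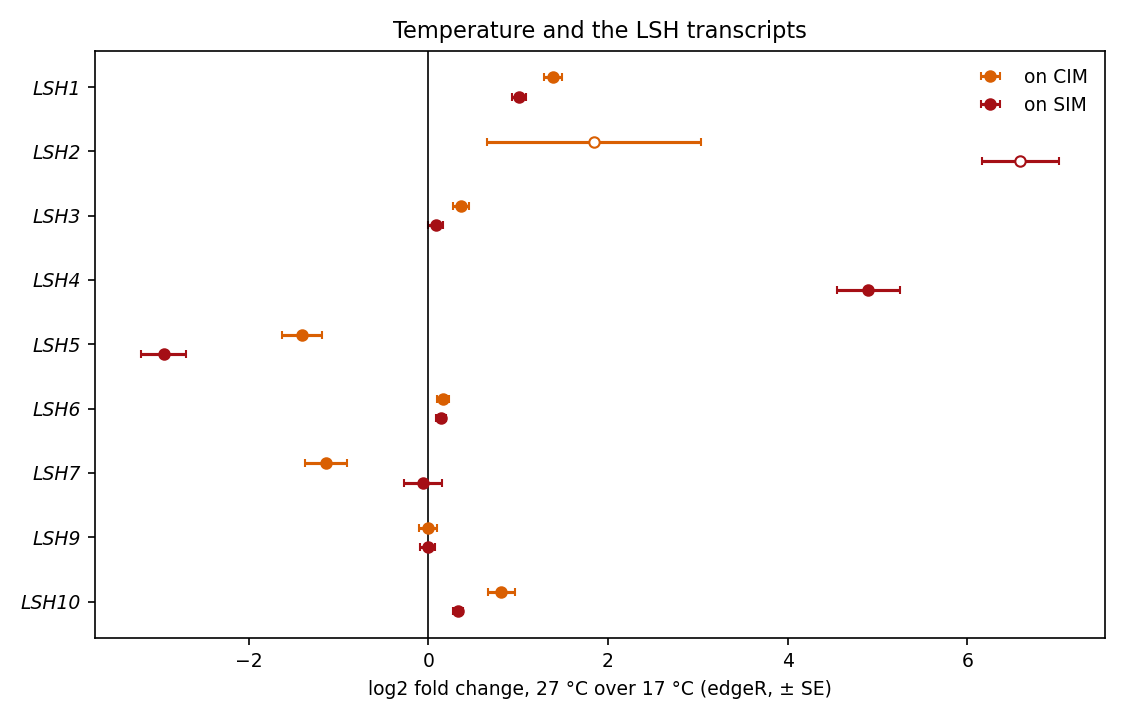
Log2 fold change of each member at 27 °C over 17 °C on CIM (orange) and on SIM (red). Bars are ± SE derived from the edgeR test. Open points have 3 counts or fewer in a group, so their fitted size depends on the prior count. LSH1 lies to the right of 0 on both media and LSH5 to the left, LSH7 lies left of 0 on CIM and within its SE of 0 on SIM, and LSH4 on CIM and LSH8 are not drawn for want of counts.

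On SIM the temperature comparison was part of the choice of the family, so its values are described only. LSH1 had 68.3, 68.2 and 62.7 CPM on SIM at 27 °C, against 33.5, 32.2 and 33.3 CPM on SIM at 17 °C, a log2 fold change of 1.01 ± 0.08. LSH5 had 1.34, 1.41 and 1.61 CPM on SIM at 27 °C, against 11.3, 12.4 and 10.5 CPM on SIM at 17 °C, a log2 fold change of -2.95 ± 0.25. The groups of both genes lay well apart. LSH10 had 60.7, 62.1 and 59.7 CPM at 27 °C, against 49.1, 47.6 and 48.2 CPM at 17 °C, a smaller difference of 0.33 ± 0.06 on the log2 scale without overlap. LSH3 (0.08 ± 0.08), LSH7 (-0.06 ± 0.21) and LSH9 (-0.01 ± 0.08) had log2 fold changes within about 1 SE of 0, and their libraries overlapped. LSH6 differed by 0.14 ± 0.06 and its groups did not overlap, with 46.5 to 48.7 CPM at 27 °C against 41.1 to 44.5 CPM at 17 °C. Counting LSH2 and LSH4, whose values in this comparison chose the family, 5 of 9 members were past the threshold used for all genes, 4 higher and 1 lower, where 43.6% of all genes were called, 20.7% higher and 22.9% lower. Nothing is read from that count.

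Whether the effect of temperature differed between media was tested as the interaction in the same fit, for the members other than LSH2 and LSH4. LSH5 had the stronger fall on SIM: its effect was 1.54 ± 0.37 log2 units lower there than on CIM (edgeR, log2 difference -1.54, adjusted p = 0.00263). For LSH7 the effect was 1.08 ± 0.32 higher on SIM than on CIM (adjusted p = 0.0133), where its log2 fold change was -0.06. Without library 1 of CIM at 17 °C the LSH7 value was 0.91 (adjusted p = 0.0512, the highest of a range from 0.00322). The effect on LSH1 was smaller on SIM by -0.38 ± 0.13 log2 units, with an adjusted p of 0.0427. Its adjusted p ran from 0.029 to 0.339 over the alternatives, the highest without library 3 of CIM at 17 °C. The call was also lost without library 1 or 3 of CIM at 27 °C, library 1 or 3 of SIM at 27 °C or any library of SIM at 17 °C. With DESeq2 size factors, the DESeq2 Wald test, no filter or a replicate block it was lost too. In all, LSH1 was not called in 14 of 20 alternatives. LSH3, LSH6, LSH9 and LSH10 did not pass (adjusted p = 0.186, 0.949, 0.98 and 0.0904), although LSH10 passed without library 3 of CIM at 17 °C (log2 difference -0.67, adjusted p = 0.0393 in a range up to 0.321). Counting LSH4, whose value rests on the 27 °C SIM libraries that chose it, 4 of 9 members were called, where 18.5% of all genes were, 8.26% higher and 10.2% lower.

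On CIM against 0 h, the members split: LSH1 rose from near absence, LSH5, LSH6, LSH7, LSH9 and LSH10 fell, and LSH3 rose at 27 °C. At 17 °C, 1 of 9 members rose and 5 fell against 0 h, where 77.2% of all genes were called, 37.7% higher and 39.5% lower. At 27 °C, 2 rose and 5 fell, where 79.8% of all genes were called, 39.5% higher and 40.4% lower. The 9 members include LSH2 and LSH4, which passed the filter only through SIM at 27 °C and had few counts in these groups. Nothing is read from the members' shares. The comparisons at each temperature share their 0 h libraries.

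LSH1 was almost absent from fresh explants, with 0, 0 and 3 counts, while the CIM libraries held 217, 180 and 232 counts at 27 °C and 69, 83 and 65 counts at 17 °C. The ratio to 0 h was 163 at 27 °C, with a counting interval of 55.4 to 791 (edgeR, adjusted p = 1.49e-22), and 62.1 at 17 °C, with an interval of 21 to 303 (adjusted p = 2.65e-16). All 3 counts at 0 h came from library 3, which also held 2824 seed maturation counts. Library 1 held 3966 of these and had 0 counts of LSH1. Without library 3, LSH1 was at least 108-fold higher on CIM at 27 °C and at least 41-fold higher on CIM at 17 °C. These bounds are against a floor of 3 counts over the remaining 0 h libraries.

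LSH10, the partner of OTLD1, and LSH5 each lost most of their level on CIM. LSH10 had 66.9, 63.7 and 59.4 CPM at 0 h, and its log2 fold change on CIM was -2.33 ± 0.09 at 27 °C (edgeR, adjusted p = 2.10e-21) and -3.14 ± 0.11 at 17 °C (adjusted p = 6.92e-23). LSH5 had 40.6, 34.3 and 37.2 CPM at 0 h, with log2 fold changes of -3.48 ± 0.16 on CIM at 27 °C (edgeR, adjusted p = 2.02e-19) and -2.07 ± 0.14 at 17 °C (adjusted p = 2.10e-15). Every CIM library lay below every 0 h library for both genes.

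LSH7, LSH6 and LSH9 fell as well. LSH7, at 23.6 to 25 CPM in fresh explants, fell by 2.52 ± 0.19 log2 units on CIM at 27 °C (edgeR, adjusted p = 1.17e-13) and by 1.38 ± 0.17 at 17 °C (adjusted p = 6.00e-09). LSH6, at 79.3 to 82.4 CPM, fell by 1.14 ± 0.06 at 27 °C (adjusted p = 7.39e-18) and by 1.30 ± 0.06 at 17 °C (adjusted p = 1.08e-18). LSH9, at 39.4 to 46.5 CPM, fell by 0.78 ± 0.09 at either temperature (adjusted p = 1.96e-09 at 27 °C and 3.73e-09 at 17 °C). LSH3 rose against 0 h on CIM at 27 °C, where it had 31.8 to 36 CPM against 21.2 to 23.1 CPM at 0 h (log2 fold change 0.61 ± 0.10, edgeR, adjusted p = 7.84e-07). At 17 °C its log2 fold change of 0.25 ± 0.10 did not pass (adjusted p = 0.0592). It passed in 6 alternatives, where the adjusted p was as low as 0.0111, and was as high as 0.199 in the others.

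**Figure D3:**
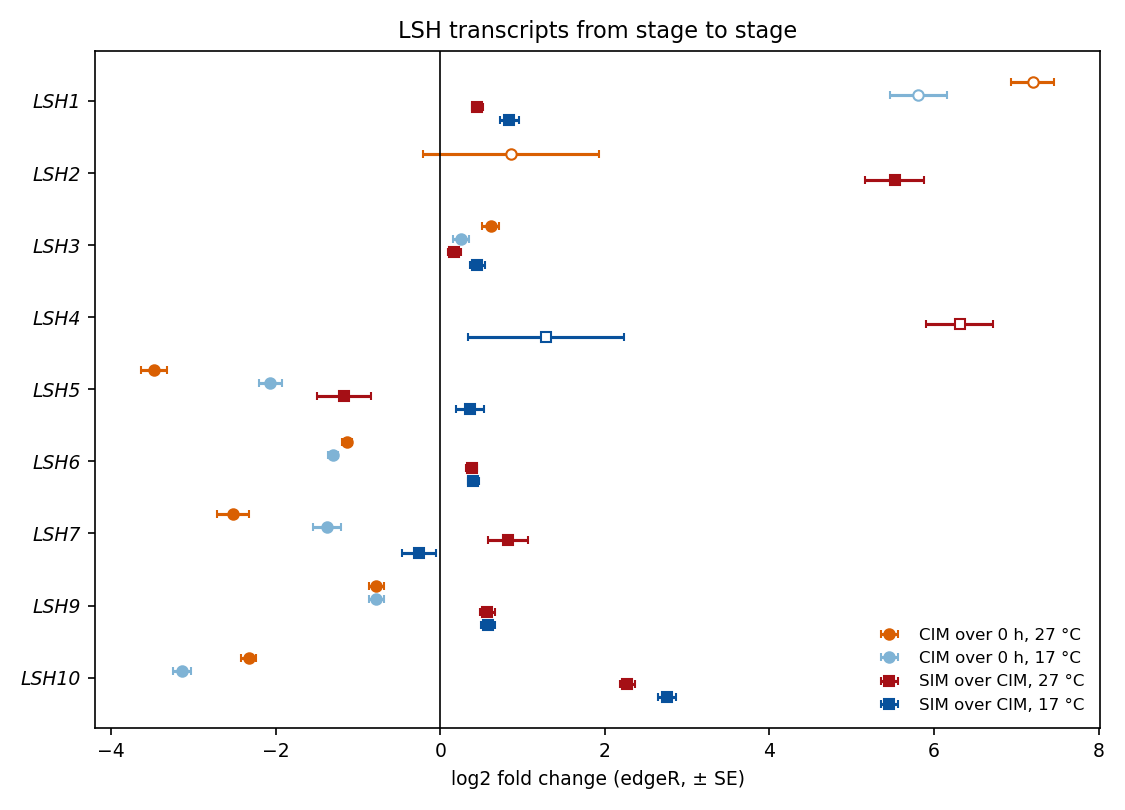
Log2 fold change of each member on CIM over 0 h (circles) and on SIM over CIM (squares), at 27 °C and at 17 °C. Bars are ± SE derived from the edgeR test, and open symbols have 3 counts or fewer in a group. LSH10 lies 2.33 to 3.14 below 0 on CIM and 2.27 to 2.75 above it on SIM, and LSH5 is left of 0 in each comparison except SIM over CIM at 17 °C.

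On SIM against CIM at 17 °C, 5 of 9 members rose and 0 fell, where 48.1% of all genes were called, 24.7% higher and 23.4% lower. These 9 include LSH2 and LSH4, which had few counts in both groups. LSH10 led, with 49.1, 47.6 and 48.2 CPM on SIM at 17 °C against 6.4, 6.01 and 8.93 CPM on CIM at 17 °C. The SIM libraries all lay far above the CIM libraries, and the log2 fold change was 2.75 ± 0.11 (edgeR, adjusted p = 5.81e-20). LSH1 rose by 0.84 ± 0.11 (adjusted p = 1.19e-07), LSH9 by 0.58 ± 0.09 (adjusted p = 2.51e-06), LSH3 by 0.45 ± 0.09 (adjusted p = 1.04e-04) and LSH6 by 0.40 ± 0.07 (adjusted p = 1.09e-04), all on the log2 scale. LSH5 (0.36 ± 0.17, adjusted p = 0.0951) and LSH7 (-0.26 ± 0.21, adjusted p = 0.315) did not pass.

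At 27 °C the same step is described without a test. LSH10 had 60.7, 62.1 and 59.7 CPM on SIM against 11.5, 14.2 and 12.1 CPM on CIM, a log2 fold change of 2.27 ± 0.09. The values of LSH9 (0.57 ± 0.09), LSH1 (0.45 ± 0.07), LSH6 (0.38 ± 0.07) and LSH3 (0.17 ± 0.08) were also positive. LSH7, at 5.37 to 8.67 CPM on SIM against 3.46 to 4.77 CPM on CIM, was higher by 0.82 ± 0.24. LSH5 alone was lower, at 1.34 to 1.61 CPM on SIM against 2.6 to 3.72 CPM on CIM, a log2 fold change of -1.17 ± 0.33. Counting LSH2 and LSH4 again, 8 of 9 members were past the threshold, 7 higher and 1 lower, where 49.7% of all genes were called, 24.9% higher and 24.8% lower. That count too rests on the choice of the family.

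Against 0 h, the SIM libraries at 17 °C had 7 of 9 members called, 2 higher and 5 lower, where 76.5% of all genes were called, 38.8% higher and 37.8% lower. At 27 °C, 8 of 9 were called, 4 higher and 4 lower, where 78.4% of all genes were called, 38.5% higher and 39.9% lower, and these counts include LSH2 and LSH4. LSH10 on SIM at 27 °C was not distinguishable from 0 h, at 59.7 to 62.1 CPM against 59.4 to 66.9 CPM (log2 fold change -0.06 ± 0.06, edgeR, adjusted p = 0.489). At 17 °C it remained below 0 h, by -0.39 ± 0.07 (adjusted p = 5.65e-06). LSH5 on SIM at 27 °C had the lowest level relative to 0 h of the members tested, at -4.65 ± 0.19 (edgeR, adjusted p = 7.19e-21), against -1.71 ± 0.13 at 17 °C (adjusted p = 7.15e-14). LSH3 rose against 0 h on SIM at 27 °C (0.78 ± 0.09, adjusted p = 3.99e-09) and at 17 °C (0.70 ± 0.10, adjusted p = 8.40e-08). LSH6 remained below 0 h on SIM at 27 °C (-0.76 ± 0.06, adjusted p = 6.61e-14) and at 17 °C (-0.90 ± 0.06, adjusted p = 3.17e-15), as did LSH7 at 27 °C (-1.70 ± 0.17, adjusted p = 8.70e-11) and at 17 °C (-1.64 ± 0.17, adjusted p = 2.96e-10). For LSH1 the ratio to its 3 counts at 0 h was 223 on SIM at 27 °C, with a counting interval of 76.1 to 1084, and 111 at 17 °C, with an interval of 37.7 to 541. Without 0 h library 3, LSH1 was at least 147-fold higher on SIM at 27 °C and at least 73.4-fold higher on SIM at 17 °C. LSH9 was lower on SIM by -0.22 ± 0.08 at 27 °C (adjusted p = 0.0307, in a range of 0.0143 to 0.218) and by -0.20 ± 0.08 at 17 °C (adjusted p = 0.049, in a range of 0.0318 to 0.269). The first call was lost in 7 of 15 alternatives and the second in 11 of 15. Both were lost in the DESeq2 Wald test, without the filter, and without library 2 or 3 of 0 h. The first was also lost without library 2 or 3 of SIM at 27 °C, and the second without library 1 or 3 of SIM at 17 °C. The second was lost as well with a replicate block and with the compared libraries alone.

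Over the groups, LSH1 and LSH5 had levels that separated all 5 groups without overlap. For LSH1 the order from high to low was SIM at 27 °C, CIM at 27 °C, SIM at 17 °C, CIM at 17 °C and 0 h. For LSH5 it was 0 h, SIM at 17 °C, CIM at 17 °C, CIM at 27 °C and SIM at 27 °C. LSH6 also had non-overlapping groups, from 0 h through SIM at 27 °C, SIM at 17 °C and CIM at 27 °C to CIM at 17 °C, although the difference between temperatures on CIM did not pass the test. For LSH7, the groups from CIM at 17 °C to SIM at 27 °C overlapped, and for LSH9 each medium's temperatures overlapped.

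Per kb of the gene span in the table, the family as a whole was high at 0 h, lower on CIM and high again on SIM. Summed over the 10 members, the libraries had 275 to 281 CPM per kb at 0 h, 177 to 187 on CIM at 27 °C, 141 to 152 on CIM at 17 °C, 278 to 286 on SIM at 27 °C and 215 to 221 on SIM at 17 °C. The groups at 27 °C did not overlap those at 17 °C on either medium. The sums include LSH2 and LSH4, whose high values on SIM at 27 °C chose the family. On SIM, LSH2 averaged 14.4 CPM per kb at 27 °C and 0.13 at 17 °C, and LSH4 15.9 and 0.49. The difference between temperatures on SIM therefore partly restates that choice. Similar sums hid different members. At 0 h, LSH6 took a median of 31.1% of the sum, LSH5 24.1% and LSH9 18.9%, while LSH1 took 0%. On SIM at 27 °C, LSH1 took 29.7%, LSH6 17.7%, LSH9 15.7% and LSH3 14.3%, and LSH5 took 0.902%. LSH4 and LSH2, at 5.75% and 5.15%, remained minor members of the family there on this scale, compared with 0.336% and 0.0841% on SIM at 17 °C. On CIM, LSH1 took 33.5% at 27 °C and 16.4% at 17 °C. Spans of the table differ from RefSeq for several members, and that of LSH5 covers its coding part only, so these shares depend on the annotation.

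**Figure D4:**
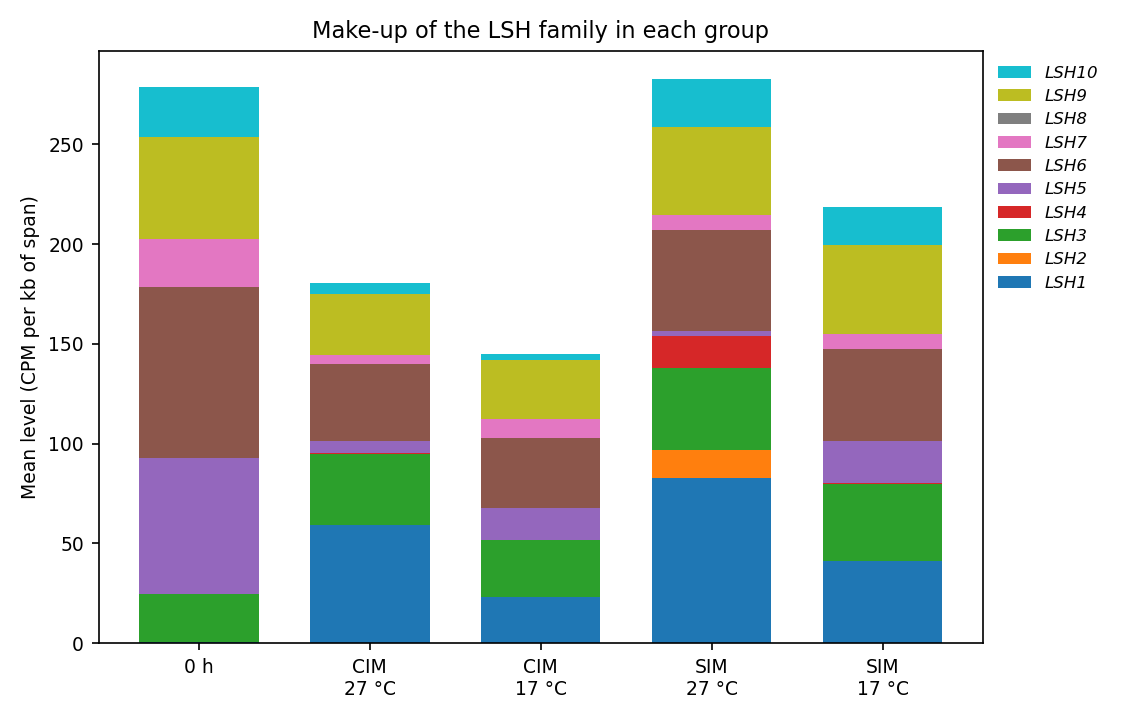
Mean level of each member in CPM per kb of gene span, stacked by group from 0 h to SIM. The bars for 0 h and SIM at 27 °C have similar heights; LSH5 and LSH6 make up most of the 0 h bar, and LSH1 is the tallest segment on CIM and SIM at 27 °C.

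A list of 29 boundary regulators and known or candidate LSH partners was counted beside the family, of which 24 passed the filter. CUC3, STM and CYP78A5 passed it only through SIM at 27 °C, and LOB and ATH1 only through SIM. Nothing is therefore read from the counts and medians of the list. On CIM, 7 were higher and 8 lower at 27 °C than at 17 °C, and 9 were not called (11 to 13 called, against 15, with each library left out), where 42.6% of all genes were called, 21.6% higher and 21% lower. The list had a median log2 fold change of 0.04 against 0.02 over all genes. On SIM, 10 were higher and 6 lower, and 8 were not called, where 43.6% of all genes were called, 20.7% higher and 22.9% lower. The median was 0.06 against 0.00. CUC1, the activator of LSH3 and LSH4, averaged 34.3 ± 1.22 CPM on SIM at 27 °C and 5.24 ± 0.99 CPM on SIM at 17 °C (SD, n = 3 each; log2 fold change 2.70 ± 0.16, edgeR, adjusted p = 2.80e-15). On CIM it had 3.23, 3.48 and 4.33 CPM at 27 °C, against 2.03, 1.68 and 0.965 CPM at 17 °C (log2 fold change 1.25 ± 0.35, edgeR, adjusted p = 0.00424). In that group at 27 °C, LSH4 had 3 counts in all and LSH3 had 31.8 to 36 CPM. A link between CUC1 and these genes was not tested.

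CUC2, a second NAC factor of the boundary, averaged 71.6 ± 1.7 CPM on SIM at 27 °C and 48.3 ± 1.35 CPM on SIM at 17 °C (log2 fold change 0.57 ± 0.08, edgeR, adjusted p = 1.09e-06). Unlike LSH4, it was already at 46.1, 48.9 and 52.9 CPM in the libraries of CIM at 27 °C and at 35.5, 30.8 and 22.2 CPM on CIM at 17 °C. CUC3, STM and CYP78A5 passed the filter only through SIM at 27 °C, so their values there are described without a test. CUC3 had 79 counts on SIM at 27 °C against 8 on SIM at 17 °C, a ratio of 9.07 with a counting interval of 4.39 to 21.7. STM, which maintains the shoot meristem, had 90 counts on SIM at 27 °C against 1 on SIM at 17 °C. CYP78A5 (KLUH), a cytochrome P450 of the meristem periphery, had 543 counts on SIM at 27 °C against 9 on SIM at 17 °C. That ratio was 55.4, with a counting interval of 29 to 122. Other genes of the list fell. On SIM, RAX1, a regulator of side meristems, fell by 1.63 ± 0.14 (edgeR, adjusted p = 1.03e-11). Log2 fold changes there were also negative for PUCHI (-2.95 ± 0.51, adjusted p = 2.98e-05) and the boundary gene LOB (-1.10 ± 0.27, adjusted p = 0.00121). RAX2 (-0.98 ± 0.10, adjusted p = 8.27e-10) and LAS (-0.78 ± 0.11, adjusted p = 2.70e-07) were lower there too. On CIM, RAX2 fell by 1.55 ± 0.10 (adjusted p = 2.77e-14) and LAS by 0.80 ± 0.10 (adjusted p = 4.28e-08). The homeodomain gene BLH9/PNY rose by 1.49 ± 0.14 on CIM (adjusted p = 6.90e-10) and by 1.02 ± 0.09 on SIM (adjusted p = 9.29e-11), and the leaf gene AS1 rose by 0.77 ± 0.07 on CIM (adjusted p = 3.06e-11).

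BOP2, an Arabidopsis counterpart of the tomato partners of TMF, averaged 50.1 ± 5.27 CPM on SIM at 27 °C and 51 ± 1.62 CPM on SIM at 17 °C (log2 fold change -0.02 ± 0.07, edgeR, adjusted p = 0.838). BOP1 did not pass the filter, with 6 counts on SIM at 27 °C and 15 on SIM at 17 °C. OTLD1, the partner of LSH10, rose slightly on CIM at 27 °C, by 0.22 ± 0.05 over 17 °C (edgeR, adjusted p = 0.00105), and on SIM by 0.16 ± 0.05 (adjusted p = 0.0214, with alternatives between 0.011 and 0.112). The call on SIM was lost without library 1 or 3 of SIM at 17 °C or library 3 of SIM at 27 °C, and in DESeq2. PHYA, a light receptor, had a log2 fold change of 0.10 ± 0.03 on CIM (adjusted p = 0.00856, with alternatives between 0.00582 and 0.0828). That call was lost without library 2 or 3 of CIM at 17 °C or library 1 or 2 of CIM at 27 °C, in DESeq2 and with the compared libraries alone. PHYB, a receptor of light and temperature, changed by -0.20 ± 0.04 there (adjusted p = 9.71e-05).

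On SIM against CIM at 27 °C, 14 of 24 genes of the list were higher and 1 lower, where 24.9% of all genes were higher and 24.8% lower. At 17 °C, 12 were higher and 4 lower, where 24.7% of all genes were higher and 23.4% lower. The list had medians of 0.52 and 0.18 against -0.01 and 0.00 over all genes. For CYP78A5, STM, CUC3, LOB and ATH1, no 0 h or CIM group held more than 6 counts. They passed the filter by being high on SIM, so these counts and medians partly follow from the filter. PUCHI, an AP2-type factor of lateral organ initiation, was lower at both temperatures, with 6 counts on SIM against 1209 on CIM at 27 °C (log2 fold change -7.57 ± 0.20, edgeR, adjusted p = 2.25e-21) and 45 counts on SIM against 1247 on CIM at 17 °C (-4.81 ± 0.14, adjusted p = 1.26e-20). CYP78A5 had 543 counts on SIM at 27 °C and 0 on CIM at 27 °C, at least 180-fold higher if the group at 0 is set to 3 counts in all. LOB, a boundary gene, had 105 counts on SIM at 17 °C and 0 on CIM at 17 °C, at least 34.2-fold higher. RAX1 rose by 3.42 ± 0.18 on SIM against CIM at 17 °C (edgeR, adjusted p = 7.03e-17). On CIM against 0 h, 10 were higher and 7 lower at 27 °C, where 79.8% of all genes were called, and 8 were higher and 11 lower at 17 °C, where 77.2% were. CUC2, almost absent at 0 h with 1 count, had 641 counts on CIM at 27 °C and 342 on CIM at 17 °C. RAX2 fell on CIM against 0 h by 2.78 ± 0.08 at 27 °C (edgeR, adjusted p = 1.69e-24) and by 1.23 ± 0.07 at 17 °C (adjusted p = 1.83e-17). Against 0 h, SIM had 14 genes of the list higher and 7 lower at 27 °C, where 78.4% of all genes were called, and 12 higher and 7 lower at 17 °C, where 76.5% were. The median log2 fold change of the 9 LSH members that passed the filter was 0.57 on SIM against CIM at 27 °C, 0.58 at 17 °C, -0.78 on CIM against 0 h at 27 °C and -0.98 at 17 °C. These 9 include LSH2 and LSH4, which passed only through SIM at 27 °C.

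**Figure D5:**
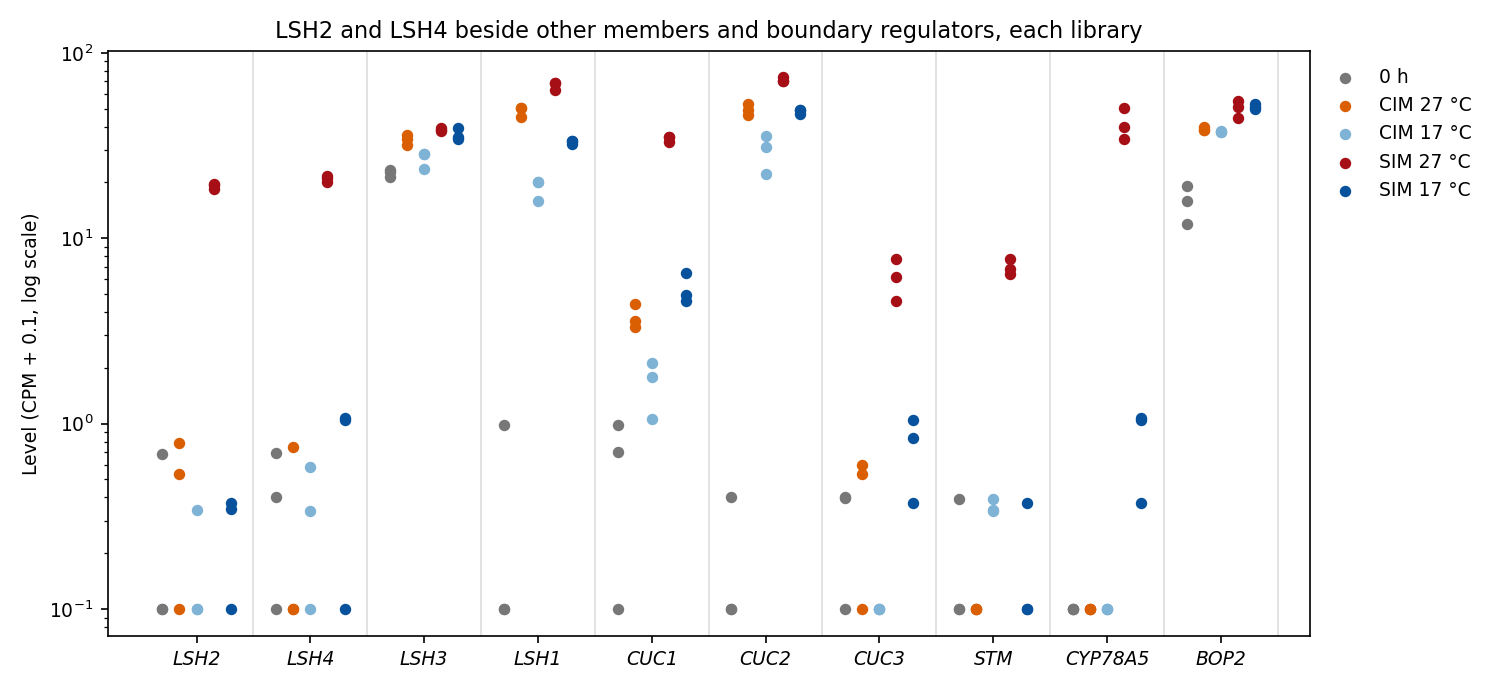
Level in each library, as CPM + 0.1 on a log scale, of LSH2 and LSH4, of LSH3 and LSH1, and of 6 boundary or meristem genes, with the 5 groups side by side within each gene. LSH2, LSH4, STM, CUC3 and CYP78A5 reach several CPM or more on SIM at 27 °C alone, while CUC2, BOP2 and LSH3 were already above 20 CPM on CIM at 27 °C.

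The genes most like LSH2 and LSH4 over the 15 libraries were sought among 20704 genes by Pearson's r of log2 CPM with a prior count of 2, among those averaging at least 2 CPM in some group. For LSH2 they were MCT2 (AT5G07930, r = 0.973), RLP28 (AT2G33080, 0.971), STM (0.965), AT1G52000 (0.959) and CYP78A5 (0.952). For LSH4 they were CYP78A5 (r = 0.973), MCT2 (0.969), ACA7 (AT1G08080, 0.96), AT1G52000 (0.956) and CUC3 (0.955). MCT2, CYP78A5 and AT1G52000 stood on both lists, and all of these genes had their highest mean on SIM at 27 °C. AT1G52000 averaged 20.5 CPM there and 0.489 CPM on SIM at 17 °C. The points share groups and libraries, and these values rest mainly on SIM at 27 °C against all other libraries.

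Among the members, LSH2 and LSH4 had r = 0.93, which restates their choice for high values on SIM at 27 °C. Of the other pairs, LSH9 and LSH10 were most alike (r = 0.927). LSH1, nearest to LSH2 in sequence, was less like LSH2 (r = 0.441) than like LSH3 (0.876), and it ran against LSH7 (-0.886) and LSH5 (-0.873). LSH3 and LSH4, which both answer to CUC1, had r = 0.538. The points are the same 15 libraries in 5 groups, so r here reflects mainly the group means.

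Because LSH2 and LSH4 were high in the same libraries, the bases before their start sites were examined, from the RefSeq annotation of TAIR10.1. The window of LSH2 is 215 bases long, ending where the neighbouring gene begins, and that of LSH4 is 250 bases. Capitals mark matches on either strand to the motifs searched.
LSH2 (chr3:1216959-1217173, minus strand): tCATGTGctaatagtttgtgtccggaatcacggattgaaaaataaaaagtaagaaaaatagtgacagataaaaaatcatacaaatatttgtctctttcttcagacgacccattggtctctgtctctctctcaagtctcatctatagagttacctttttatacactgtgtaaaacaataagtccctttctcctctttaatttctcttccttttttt
LSH4 (chr3:8326378-8326627, plus strand): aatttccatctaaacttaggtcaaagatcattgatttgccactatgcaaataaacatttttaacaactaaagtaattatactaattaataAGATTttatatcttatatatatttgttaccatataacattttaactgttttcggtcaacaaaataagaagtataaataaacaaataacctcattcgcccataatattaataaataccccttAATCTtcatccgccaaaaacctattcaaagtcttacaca

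The motifs were the G-box CACGTG, the E-box CACATG bound by PIF factors, the core AGATT of type-B response regulators of cytokinin signalling, the letters CATGTG of NAC factors and TTAATGG of WUS. CACATG and CATGTG are each other's reverse complement, so on both strands they are the same search. LSH2 held CATGTG once, at the far end of its window, a motif present in 11.1% of 27443 promoters of 250 bases. LSH4 held 2 matches to AGATT, a motif present in 63.7% of these promoters and in 5 of the 10 members. G-boxes were found in 6.49% of all promoters and in LSH6 alone among the members, and TTAATGG in 6.99% of all promoters and in 0 of the 10 members. The windows of LSH2 and LSH4 had no searched motif in common. These are matches of letters and describe neither binding nor control.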

How the data were processed

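RNA was measured by sequencing in 15 samples, from RNeasy Plant Mini extracts and, per the labels' protocols, KAPA Stranded mRNA-seq kits. The authors deposited a table of unnormalized counts for each gene in each library. The submitters' processing notes list, without roles, the build TAIR10 and the tools bedtools 2.26.0, SAMtools 1.9, Bowtie2 2.3.4.3 and FastQC 0.11.7. Not given in the sources used here are the handling of strand, of duplicates and of introns. Of the gene identifiers, 32835 matched RefSeq, and the symbols of all 10 members matched. Few genes (6 of 33602) exceeded 1 count per base in any library, and the densest member reached 0.379, so folds of dense genes may read too small if a position was counted once.

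The members, lists and comparisons were chosen with earlier results of these data known. Genes were filtered by filterByExpr, which left 20704, scaled by TMM (factors 0.907 to 1.04) and fitted in 1 edgeR 4.0.16 quasi-likelihood model of 5 groups with robust settings, in R 4.3.3, with a prior count of 0.125. P-values, two-sided, were adjusted by Benjamini and Hochberg over all genes within each of 9 comparisons, with a threshold of 0.05. A group at 0 counts was set to a floor of 3 counts over the group, and counting intervals were exact at 95%. Named were all members, up to 4 called genes of the boundary list with the smallest p in a comparison, and the CUC and BOP genes; other genes of that list were chosen after their values were seen. Alternatives were DESeq2 1.42.0 size factors, its Wald test, no filter, a replicate block, the compared libraries alone, 27 °C CIM libraries 1 and 3 as 1 sample, a prior count of 2, and each library left out. Added after seeing the data were 0 h library 2 alone and counts corrected as if each position were counted once. Same-numbered libraries did not deviate together (r from -0.2 to 0.0577 in 30 pairs). The fits were also run on simulated counts, drawn with a wider spread than the common dispersion of 9.77e-05 fitted here. That run therefore does not bear on the p-values of these data. Coding sequences were aligned with MAFFT 7.526. Tables and figures were made with Python 3.11.15, pandas 2.3.3, SciPy 1.17.1 and matplotlib 3.10.9.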

Additional observations from a re-analysis of the deposited data

Results flagged for a closer look

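Besides LSH2 and LSH4, the interaction test of edgeR called a different effect of temperature between media for 3 members, 1 of them not firmly. Differences are given as the effect on SIM minus the effect on CIM on the log2 scale. The difference was -1.54 for LSH5, 1.08 for LSH7 and -0.38 for LSH1, the last not called in 14 of 20 alternatives. Of the 24 genes tested in the boundary list, 7 were called, 5 higher and 2 lower, where 18.5% of all genes were called. The difference was 1.45 for CUC1 (adjusted p = 0.0189, in a range of 0.00897 to 0.12 over its alternatives, with the call lost without library 1 or 2 of CIM at 17 °C). It was 0.57 for RAX2 and 1.05 for KNAT2, a meristem homeobox gene. It was -2.76 for PUCHI and -0.47 for AS1. It was 2.43 for RAX3, a relative of RAX1 (adjusted p = 0.0121), from 6 counts on CIM at 27 °C, 36 on CIM at 17 °C, 14 on SIM at 27 °C and 15 on SIM at 17 °C. STM was also called, but it passed the filter only through SIM at 27 °C, so no p-value is given for it. With 0 counts on CIM at 27 °C and 3 on CIM at 17 °C, the size of its difference depends on the prior count and is not given. What lies behind these differences was not tested.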

How the results depend on the processing

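Depth limits LSH2 and LSH4 outside SIM at 27 °C, where they had few counts, and their fitted fold changes there depend on the prior count. Counts of members, of all genes and of boundary genes called stayed within 1.5 times their reported values in every alternative. Leaving out each library in turn, 4 to 5 members were called between temperatures on CIM, 5 on SIM and 3 to 4 in the interaction. The replicate block is reported although library numbers do not pair the samples: it called 8797 genes between temperatures on CIM against 8822, 5 members there, and 3 against 4 members in the interaction, where LSH1 had an adjusted p of 0.0528. With 0 h library 2 alone, 6 members were called on CIM at 17 °C and 7 at 27 °C. With positions counted once corrected, the log2 fold change of LSH1 between temperatures was 1.52 on CIM and 1.18 on SIM. Of 1637 alternative values of named genes, 1543 kept their side of the threshold or moved within the spread. In 14 the sign changed, all for values near 0 with 1 library left out: LSH6 in the interaction (-0.05 to 0.04), LSH7 on SIM (-0.21 to 0.14), LSH9 on SIM (-0.06 to 0.04) and in the interaction (-0.07 to 0.07), and BOP2 on SIM (-0.09 to 0.06). The cause was not tested.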
